A study of Mus musculus with 9 samples.

Results

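Ret and the co-receptor genes Gfra1, Gfra2 and Gfra3 were examined in single trigeminal neurons of the mouse. These 4 genes were taken by name, as members of 1 receptor system, from the 21536 genes of the count table, with no threshold on their values. The trigeminal ganglion holds the cell bodies of the sensory neurons of the face and head. Cells came from pooled ganglia of wild type FVB/N mice aged 3 to 6 weeks by the sample labels (the study's methods give a narrower range for these runs), with no treatment and no other genotype. Glia had been depleted before droplets were made, and all 9 Dropseq runs share that preparation. In Dropseq each cell is caught with a barcoded bead, and every mRNA molecule is tagged by a unique molecular identifier (UMI), so that a value is a count of molecules seen. The runs were deposited as 1 table of 6997 cell barcodes, in which the barcode does not name its run. All groups of cells below are therefore parts of 1 pooled sample, no difference between them can be tested over replicates, and every interval given covers counting error only.

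RET is a receptor tyrosine kinase that does not bind its ligands alone. The glial cell line-derived neurotrophic factor (GDNF) family ligands bind co-receptors held in the membrane by a lipid anchor, GFRα1 for GDNF, GFRα2 for neurturin, GFRα3 for artemin and GFRα4 for persephin, and the ligand and co-receptor together engage RET. In sensory ganglia many small neurons that depend on nerve growth factor before birth take up Ret afterwards under control of the transcription factor Runx1, and these become nonpeptidergic nociceptors. Some large myelinated touch neurons express Ret early and independently of that switch.

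Positions are from the GENCODE annotation of mouse build GRCm38, which is the mm10 build named by the submitters. Ret lies on chromosome 6 at 118151745 to 118197718, minus strand, and its longest coding transcript has 20 exons and 1115 codons. Gfra1 lies on chromosome 19 at 58235604 to 58455909, minus strand, with 11 exons and 468 codons. Gfra2 lies on chromosome 14 at 70890120 to 70979838, plus strand, with 9 exons and 464 codons. Gfra3, whose position is not printed here, has 8 exons and 397 codons. The 3 co-receptors are paralogs, so the likeness of their messages decides whether reads could be shared between them. Over 1334 aligned coding bases Gfra1 and Gfra2 were 65.1% identical, and the longest exact run that their transcripts share was 28 bases. Gfra3 shared no exact run longer than 13 bases with either co-receptor, and no run longer than 14 bases was shared between Ret and a co-receptor. Dropseq reads come from near the 3′ end of the message. An antisense gene on the opposite strand, Gm16277, overlaps exons of Gfra1 and held 6 UMIs in neurons beside 765 of Gfra1. The annotation has no gene overlapping Ret, Gfra2 or Gfra3.

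Neurons were barcodes with 500 to 7500 genes, a UMI of at least 3 of the 6 neuronal genes Tubb3, Scn9a, Snap25, Nefl, Nefm and Uchl1, and none of the epithelial gene Epcam. This left 3855 neurons with a median of 3014 UMIs (range 1000 to 55655). Sensory neuron genes outside the rule followed the label. Prph was seen in 92.7% of these neurons, against 12.5% of barcodes with glial markers, and Isl1 in 51.3% against 0.431%. Groups were formed by the first match to a marker gate: Trpm8, the cold and menthol channel (244 neurons); Mrgprd, of nonpeptidergic nociceptors (379); Mrgpra3, of itch neurons (49); Nppb, a peptide of another itch class (57); Cd34, a cell surface antigen (320); Nefh without Trpv1, of large myelinated neurons (450); and Calca with Trpv1, of peptidergic nociceptors (916). The 2415 grouped neurons are 62.6% of the neurons, and 349 of them match more than 1 gate. Median depth of the groups ran from 3406 UMIs (Nppb) to 5836 (Cd34), and it was 1826 UMIs in the 1440 neurons of no group. Summed markers of glia ran from 270 counts per 1000000 UMIs (CPM) in the Trpm8 group to 2390 CPM in the Cd34 group, and those of red blood cells from 3153 CPM in the Mrgprd group to 6195 CPM in the Calca group. Fibroblast markers were at 351 CPM in the Calca group and 9.17 to 98.6 CPM in the other groups, and endothelial markers ran from 7.04 CPM in the Nppb group to 92.4 CPM in the Cd34 group. The neurons of no group had more of several lists, with 9771 CPM of glial, 14202 CPM of red blood cell and 4143 CPM of pituitary markers, and they are part of every value given for all neurons. The part of these markers in the values below was not tested.

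At least 1 of the 4 genes was seen in 65.5% of neurons (64.0% to 67.0%, exact binomial 95% interval), and in 38.7% when each neuron was thinned at random to 1000 UMIs. Neurons held 86.6% of the 7009 UMIs of Ret in the table, 94.2% of the 3584 of Gfra3, 83.3% of the 2085 of Gfra2 and 71.3% of the 1073 of Gfra1. Much of the rest was in 40 barcodes left out for having over 7500 genes, with 715 UMIs of Ret and 186 of Gfra1. Those 40 had a median of 64714 UMIs, and doublets were not removed by any caller. For background, 613 barcodes with red blood cell markers (median 1437 UMIs) had a Ret UMI in 1.63%, Gfra1 in 2.28%, Gfra2 in 1.79% and Gfra3 in 0.326%. The corresponding levels were 9.43, 14.2, 12.3 and 1.89 CPM. In 217 barcodes with pituitary markers the shares were 1.38%, 1.38%, 0.922% and 0.922%, and in 82 with endothelial markers 1 Gfra3 UMI and none of the other genes was seen. A level in neurons at or below these is read here as background.

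Ret, the signalling subunit, was present in all 7 groups above that background, and its level differed 15.7-fold (12.7 to 19.8) between the highest and the lowest. The level, as pooled CPM with its exact Poisson 95% interval, was 631 CPM (604 to 658) in the Mrgprd group, where 343 of 379 neurons had a UMI (90.5%, or 50.1% at 1000 UMIs). It was 492 CPM (418 to 575) in the Mrgpra3 group. Values close to the average of grouped neurons were seen in the Nppb group (320 CPM, 258 to 393), the Calca group (316 CPM, 301 to 332) and the Cd34 group (283 CPM, 265 to 302). Lower still were the Nefh group (164 CPM, 150 to 178) and the Trpm8 group (40.1 CPM, 32.0 to 49.6), in which 21.7% of neurons had a Ret UMI and 4.51% did at 1000 UMIs. Every neighbouring pair in that order was apart beyond counting error except Nppb and Calca, whose ratio was 1.01 (0.811 to 1.25). Against all other grouped neurons together the Mrgprd group was 1.43 higher on the log2 scale (1.35 to 1.51). The 15.7-fold difference depends on the gates, and 149 of the 244 Trpm8 neurons match another gate. Among neurons that match 1 gate alone Ret was 59.4 CPM in the Trpm8 group, above the interval given. It was 640 CPM in the Mrgprd group, so the difference was smaller there.

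Within groups the Ret UMIs were spread unevenly. In the Mrgprd group a neuron with Ret had a median of 4 Ret UMIs, and the 10% of neurons with most Ret held 36.5% of them. The corresponding share was 44.2% in the Calca group and 72.8% in the Nefh group, where 293 of 450 neurons had no Ret UMI and 30 neurons with 5 or more held 63.1% of the total. The pooled level of the Nefh group is therefore an average over few neurons with much Ret (up to 45 UMIs) and many with none seen. The neurons of no group had 196 CPM of Ret (182 to 211).

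**Figure D1:**
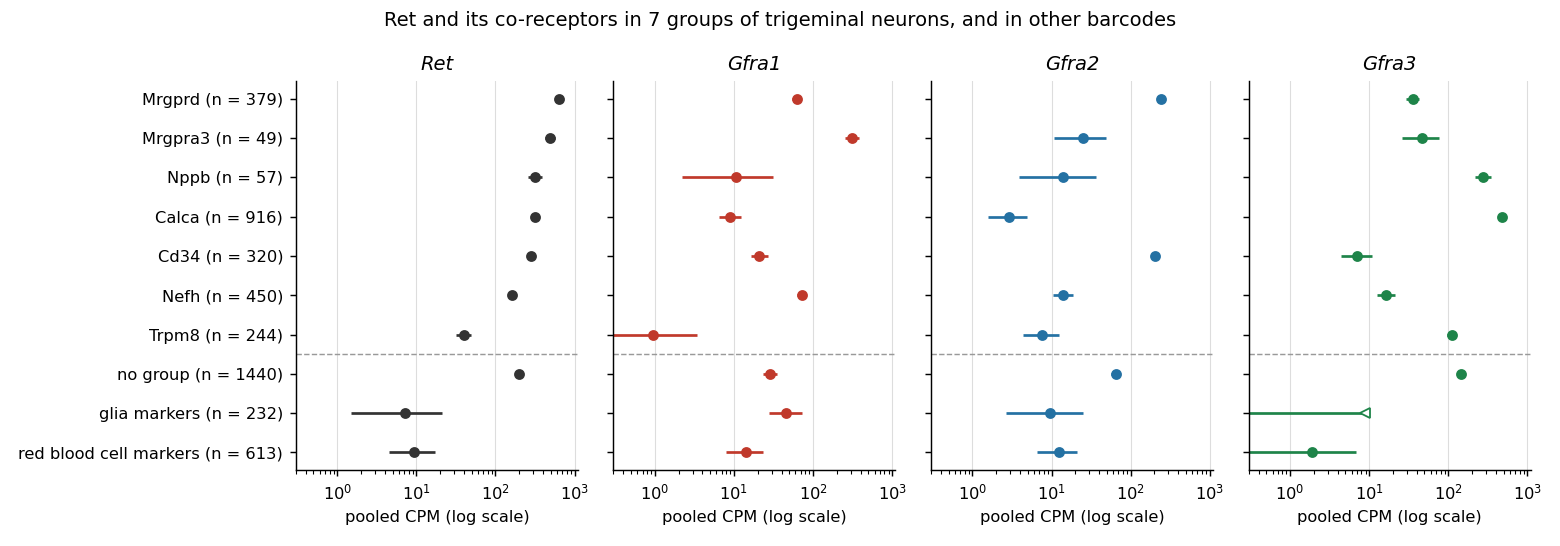
Pooled level of each gene (CPM, log axis) in the 7 gated groups, in neurons of no group and, below the dashed line, in barcodes with glial or red blood cell markers. Points are levels, lines exact Poisson 95% intervals, n the number of barcodes, and an open triangle the upper limit where no UMI was seen. Ret spans all neuron groups, whereas Gfra1 peaks in the Mrgpra3 group (312 CPM), Gfra2 in the Mrgprd and Cd34 groups (242 and 201 CPM) and Gfra3 in the Calca group (480 CPM).

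The co-receptors were far more restricted. Of the 10281 genes with 100 or more UMIs in grouped neurons, 6.88% were 4-fold or more higher in some group than in all other grouped neurons, and among the 4 genes this held for the 3 co-receptors but not for Ret. Each co-receptor had its highest level in a different group, and the highest group of each of the 4 genes was the same in the 6 processing alternatives reported.

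Gfra1, the co-receptor for GDNF, was highest in the Mrgpra3 group at 312 CPM (255 to 380), from 101 UMIs in 29 of 49 neurons. That is 59.2% of the neurons, or 18.4% at 1000 UMIs. The difference from all other grouped neurons was 3.24 on the log2 scale (2.92 to 3.55), and 0.603% of all genes tested were 4-fold or more higher in this group. The Nefh group (72.1 CPM, 63.4 to 81.8) and the Mrgprd group (62.0 CPM, 53.8 to 71.2) followed and were not apart from each other, with a ratio of 1.16 (0.961 to 1.41). In the Cd34 group the 65 UMIs came from 15 neurons, 1 of which had 19, and the level of 21.0 CPM was 8.59 CPM without the deepest 5% of neurons. The Nppb group (3 UMIs, 10.6 CPM), the Calca group (9.03 CPM) and the Trpm8 group (2 UMIs, 0.943 CPM) lay at or below the red blood cell background of 14.2 CPM, although the Nppb level was 31.9 CPM with doubled gates. Gfra1 was also seen in barcodes with glial markers, at 46.0 CPM (27.7 to 71.9), with a UMI in 6.47% of 232 at a median of 1463 UMIs. That interval overlaps those of the Nefh and Mrgprd groups. At 1000 UMIs the share with Gfra1 was 4.74% in these barcodes, 6.22% in the Nefh group and 6.07% in the Mrgprd group, so only the Mrgpra3 group stood clear of them. Whether the glia or free RNA gave these UMIs was not tested.

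Gfra2, the co-receptor for neurturin, was shared by the Mrgprd and Cd34 groups. The Mrgprd group had 242 CPM (226 to 260), with a UMI in 66.0% of neurons (20.8% at 1000 UMIs), and the Cd34 group 201 CPM (185 to 217), with a UMI in 60.9% (17.2% at 1000 UMIs). The Mrgprd group was 1.21-fold higher than the Cd34 group (1.08 to 1.34). The difference of the Mrgprd group from all other grouped neurons was 2.26 on the log2 scale (2.11 to 2.41), beside 1.48% of all genes that were 4-fold or more higher there. No other group held more than 24.8 CPM, and that value, in the Mrgpra3 group, rests on 8 UMIs in 3 neurons, 6 of them in 1 cell. The Nefh, Nppb and Trpm8 groups had 14.1, 14.1 and 7.54 CPM, close to or below the background of 12.3 CPM (6.53 to 21.0). The Nefh value was 28.9 CPM when each neuron was thinned to 1000 UMIs, and the Nefh neurons with 2 or more UMIs of Ntrk2 had 25.2 CPM (16.5 to 37.0) at full depth, so Gfra2 in that group was not settled as background. Among the 95 Trpm8 neurons that match no other gate the level was 21.8 CPM. In the Calca group 14 of 916 neurons had 1 Gfra2 UMI each and none had more (2.87 CPM, 1.57 to 4.82). Of the 342 neurons with 2 or more Gfra2 UMIs, 48.8% were in the Mrgprd group and 36.3% in the Cd34 group.

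Gfra3, the co-receptor for artemin, was highest in the Calca group at 480 CPM (461 to 500), where 634 of 916 neurons had a UMI (69.2%, or 35.5% at 1000 UMIs). The difference from all other grouped neurons was 3.52 on the log2 scale (3.38 to 3.66), and 1.56% of genes were 4-fold or more higher in that group. The Nppb group had 275 CPM (217 to 343) and the Trpm8 group 111 CPM (97.1 to 126). With doubled gates the Trpm8 level was 58.7 CPM. In the Mrgprd group the level was 35.8 CPM, but 94 of its 117 UMIs were in the 100 neurons that also match another gate, and the neurons matching this gate alone had 14.4 CPM. The Mrgpra3 group (46.4 CPM, 15 UMIs) was not apart from the Mrgprd group, and its level was 73.6 CPM with every neuron weighted equally, 81.6 CPM when thinned and 21.4 CPM with doubled gates. Lowest were the Nefh group (16.5 CPM) and the Cd34 group (7.11 CPM from 22 UMIs). The Cd34 level was 2.28 CPM among neurons that match this gate alone, 1.32 CPM with doubled gates, 11.5 CPM without the deepest 5% of neurons and 14.3 CPM with every neuron weighted equally.

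Levels 4-fold or more below all other grouped neurons were also counted. The Trpm8 group was that far below for Ret, Gfra1 and Gfra2, where 5.21% of all genes were. In the Mrgpra3 group none of the 4 genes was (1.3% of genes), but Gfra2 (8 UMIs) and Gfra3 (15 UMIs) were near that limit there, at -1.83 and -1.85 on the log2 scale. With doubled gates their levels in this group were 3.06 and 21.4 CPM, against 24.8 and 46.4 CPM. Among the neurons that match this gate alone they were 48.6 and 32.4 CPM. The count of 0 therefore rests on few UMIs and on the gate. The rest had 1 or 2 co-receptors that far below: Gfra3 in the Mrgprd group (6.74% of genes), Gfra2 in the Nppb group (0.973%), Gfra3 in the Cd34 group (3.8%), Gfra2 and Gfra3 in the Nefh group (2.14%), and Gfra1 and Gfra2 in the Calca group (3.11%). The Nppb count rests on 4 Gfra2 UMIs, all in 1 neuron. Sums under 3 UMIs were set to 3, so genes of low level elsewhere cannot reach the limit in small groups. Gfra1 in the Nppb group, at that floor, was -1.87 on the log2 scale, with 38.6 CPM in the other grouped neurons. On simulated data the count missed most genes made lower in the Mrgpra3 and Nppb groups. Their shares of 1.3% and 0.973% of genes may therefore be too low.

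A finer division, made by which list of subtype genes had more UMIs in a neuron, gave large differences in Gfra3. In the Mrgprd group, 71 neurons with more of Agtr1a and Mrgpra1 had 107 CPM of Gfra3 (81.7 to 138), and 213 neurons with more of Otoa, Prkcq and Mrgprb5 had 3.53 CPM (1.52 to 6.95). The ratio was 30.4 (14.5 to 73.5). Ret was 644 and 643 CPM, with an interval of the ratio from 0.891 to 1.13, but 887 and 620 CPM at 1000 UMIs per neuron, while Gfra2 was 187 against 270 CPM and Gfra1 42.8 against 69.6 CPM. The Gfra1 order turned at 1000 UMIs per neuron, with 113 against 51.6 CPM. The shares of neurons with Gfra1 were then 11.3% (4.99% to 21.0%) and 4.69% (2.27% to 8.46%). Those intervals overlap, so the order of Gfra1 was not settled. The Gfra2 levels were 257 and 271 CPM among neurons that match the Mrgprd gate alone and 240 and 266 CPM with every neuron weighted equally. The Gfra3 UMIs of the Agtr1a and Mrgpra1 neurons came from 14 of the 71 cells. Among neurons that match the Mrgprd gate alone the Gfra3 levels were 27.5 and 2.57 CPM and those of Ret 766 and 626 CPM, and with every neuron weighted equally they were 66.0 and 5.55 CPM.

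The Trpm8 group divided in the same gene. The 60 neurons with more of Ndrg1 and Angpt4 had 265 CPM of Gfra3 (224 to 310), with a UMI in 38 of 60, and the 122 with more of Ociad2 and Cpne9 had 34.0 CPM (24.6 to 45.8), with a UMI in 25 of 122. The ratio was 7.78 (5.51 to 11.2). Over the alternatives the second level ran from 21.5 to 65.5 CPM. Ret was 67.0 CPM in the first and 26.1 CPM in the second, a ratio of 2.57 (1.57 to 4.22). Among Trpm8 neurons that match no other gate, 30 in each split, Gfra3 was 205 against 65.5 CPM and Ret was 66.7 against 65.5 CPM, so the Ret difference was not seen there.

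In the Calca group the 328 neurons with more of Trpa1, Mfap5 and Gpr83 had the highest Gfra3, 736 CPM (698 to 776), and the highest Ret, 426 CPM (397 to 457). The 281 neurons with more of Cyp1b1, Kit and Kcnk3 had 293 CPM of Gfra3 (267 to 320) and 189 CPM of Ret (169 to 211). That is a 2.52-fold difference in Gfra3 (2.27 to 2.79) and a 2.25-fold difference in Ret (1.98 to 2.57). The 57 neurons with more of Sstr2 and Dcdc2a had 262 CPM of Gfra3 and 266 CPM of Ret. The 51 with more of Fam150b and Ptger1 had 384 and 337 CPM. Their Gfra1 level of 26.1 CPM (12.5 to 48.0), from 10 UMIs in 7 neurons, has an interval that holds the red blood cell level of 14.2 CPM and the glial level of 46.0 CPM.

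The Cd34 group was not resolved. Its 250 neurons with more of Fam19a4 and Cdh9 had 291 CPM of Ret and 221 CPM of Gfra2 (204 to 240), and 12 neurons with more of Scin were too few for a level. In the Nefh group, neurons with 2 or more UMIs of Ntrk2, the TrkB receptor of brain-derived neurotrophic factor (n = 91), had the highest Gfra1 level, 111 CPM (91.3 to 133). Among the rest, neurons with 0 or 1 Calca UMI (n = 249) had 75.5 CPM of Gfra1 (61.3 to 92.0) and those with 5 or more Calca UMIs (n = 82) had 24.4 CPM (15.1 to 37.3). Without the deepest 5% of neurons these last had 47.2 CPM. At full depth Ret took another order, with 258 CPM in the neurons with little or no Calca, 136 CPM in the Ntrk2 neurons and 83.6 CPM in the Calca neurons. The last 2 changed places without the deepest 5% of neurons, at 166 and 171 CPM. With every neuron weighted equally the neurons with little or no Calca and the Ntrk2 neurons had 234 and 230 CPM, and thinned to 1000 UMIs they had 241 and 297 CPM, so the first 2 places of the Ret order were not settled.

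**Figure D2:**
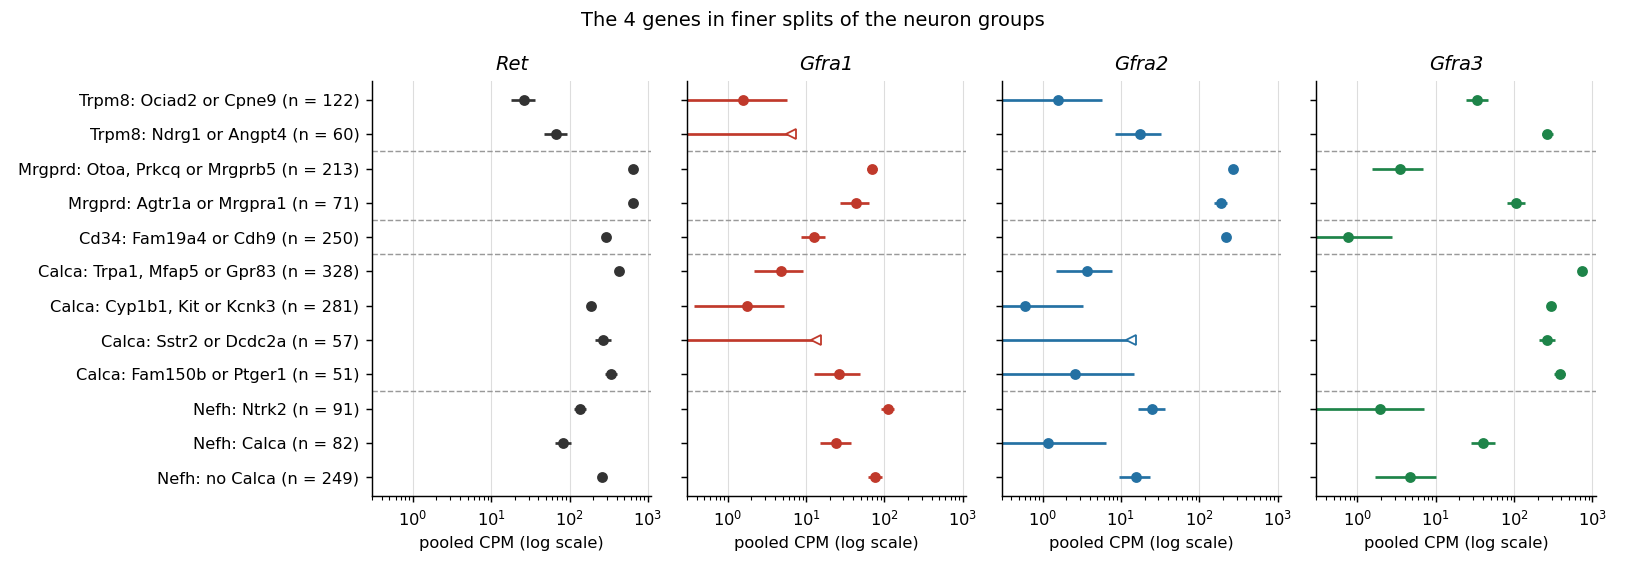
Pooled level of each gene (CPM, log axis) in the 12 finer splits with 30 or more neurons, grouped by dashed lines. Points are levels, lines exact Poisson 95% intervals and open triangles upper limits where no UMI was seen. Gfra3 differs between the 2 Mrgprd splits (107 and 3.53 CPM) and between the 2 Trpm8 splits (265 and 34.0 CPM), whereas Ret was 644 and 643 CPM in the Mrgprd splits at full depth (887 and 620 CPM when thinned to 1000 UMIs).

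Which co-receptor accompanied Ret in the same neuron was read next. Of 1836 neurons with a Ret UMI, 70.2% (68.1% to 72.3%) had a UMI of at least 1 of the 3 co-receptors, and at 1000 UMIs per neuron 30.7% of 856 did. The share therefore depends on depth. At full depth neurons with Ret had a median of 4602 UMIs and those without had 2207. In the Calca group 447 of 563 neurons with Ret had Gfra3 (79.4%), 19 had Gfra1 and 11 had Gfra2. In the Mrgprd group 232 of 343 had Gfra2 (67.6%), 113 had Gfra1 (32.9%) and 32 had Gfra3 (9.33%). In the Cd34 group 159 of 224 neurons with Ret had Gfra2 (71.0%) and 13 had Gfra1. In the Mrgpra3 group 26 of 39 had Gfra1 (66.7%) and in the Nefh group 67 of 157 (42.7%). In the Nppb group 16 of 34 had Gfra3 (47.1%), beside 11 of 23 neurons without Ret (47.8%). In the Trpm8 group, where few neurons had Ret, 24 of 53 had Gfra3 (45.3%) and none had Gfra1. The upper limit of 6.72% that the exact interval gives for 0 of 53 is one on neurons with a Gfra1 UMI, not on neurons that express the gene.

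UMIs of 2 or more different co-receptors were seen in 180 of the 1979 neurons with any co-receptor. Of these 180, 100 were in the Mrgprd group, out of 296 there with any. At 1000 UMIs the count was 22 of 898, so it depends on depth and does not limit how many neurons express more than 1. In the Mrgprd group Gfra1 was seen in 33.6% of neurons with Gfra2 (median 7502 UMIs) and in 27.1% of those without (median 3283 UMIs). In counts, 84 neurons had both, 166 had Gfra2 without Gfra1 and 35 had Gfra1 without Gfra2. At 1000 UMIs the shares were 10.1% (4.47% to 19.0%) and 5.0%. In the Cd34 group Gfra1 was in 2 of 195 neurons with Gfra2 and in 13 of 125 without.

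**Figure D3:**
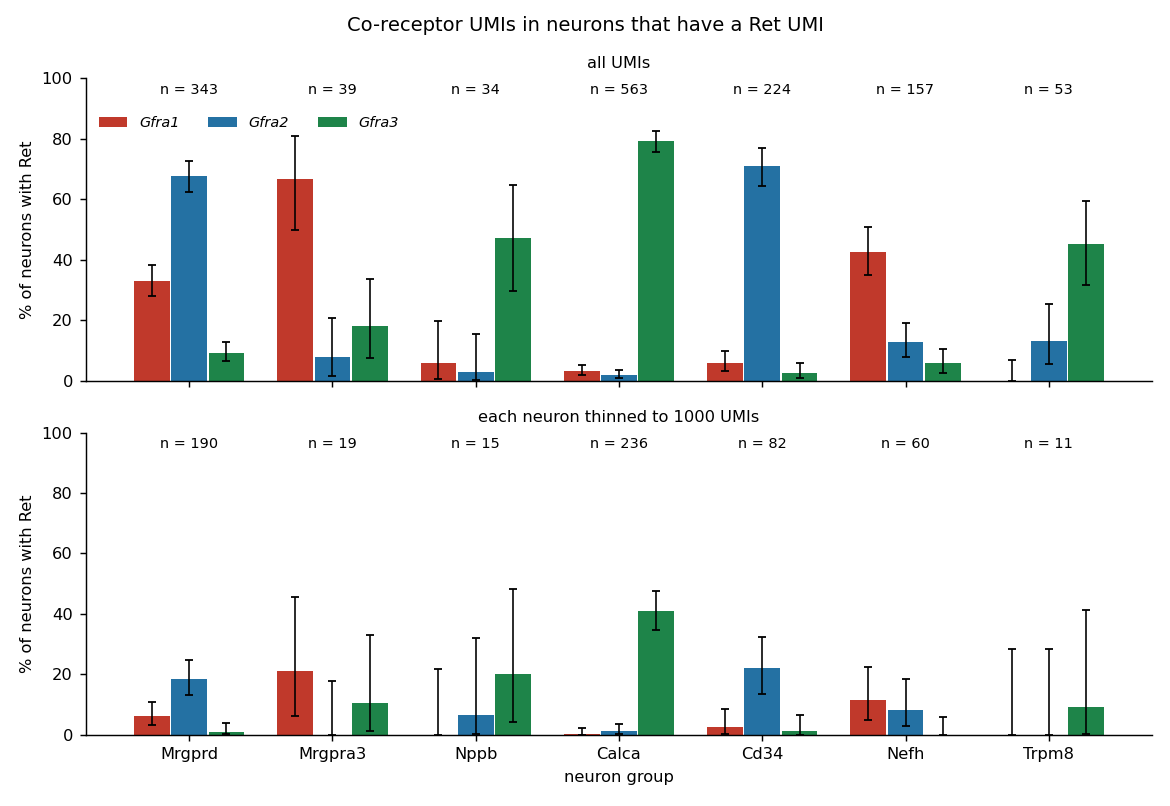
Percent of neurons with a Ret UMI that also had a UMI of Gfra1 (red), Gfra2 (blue) or Gfra3 (green), by group, with exact binomial 95% intervals and the number of neurons with Ret, from all UMIs (above) and after thinning each neuron to 1000 UMIs (below). At full depth Gfra3 was in 79.4% of Ret neurons of the Calca group and Gfra2 in 71.0% of those of the Cd34 group, and thinning lowered the shares to 41.1% and 22.0%.

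Co-receptor levels were also compared between neurons of 1 group with and without Ret. In the Nefh group Gfra1 was 137 CPM (114 to 163) in 78 neurons with 2 or more Ret UMIs and 36.1 CPM (28.0 to 46.0) in 293 with none, a difference of 1.92 on the log2 scale (1.48 to 2.38). After thinning, with Ret 1 or more against 0, it was 1.12 (-0.25 to 2.32), which includes 0. Gfra2 was 28.1 against 7.67 CPM, a difference of 1.87 (0.88 to 2.92), and 2.48 (0.63 to 4.28) after thinning, from 6 and 7 UMIs. In the Calca group Gfra3 was 542 against 356 CPM, a difference of 0.61 (0.45 to 0.77) that became 0.20 (-0.12 to 0.51) after thinning. In the Mrgprd group Gfra2 was 242 CPM with Ret and 274 CPM without (-0.18, -0.72 to 0.42). Gfra1 was 63.6 and 58.7 CPM, and Gfra3 was lower with Ret, at 34.6 against 88.1 CPM (-1.35, -2.33 to -0.18), the last from 9 UMIs. In the Cd34 group Gfra2 was 222 CPM with Ret and 153 CPM without (0.54, 0.14 to 0.97). In the Trpm8 group Gfra3 was 190 CPM in 13 neurons with 2 or more Ret UMIs and 86.1 CPM in those with none (1.14, 0.63 to 1.64). The intervals of these last differences in Gfra3 of the Mrgprd group, Gfra2 of the Cd34 group and Gfra3 of the Trpm8 group included 0 after thinning, at -1.59 (-4.93 to 0.89), 0.43 (-0.41 to 1.23) and -0.45 (-5.81 to 2.14). All other comparisons of this kind had an interval that included 0 or a level of 0.

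The Nefh neurons rich in Ret differed in other genes as well. The transcription factor Maf, which is known to act in touch neurons, was at 255 CPM (208 to 310) in the 30 neurons with 5 or more Ret UMIs, at 132 CPM (112 to 154) in the 127 with 1 to 4 and at 65.2 CPM (54.0 to 78.0) in those with none. Gfra1 went the same way, with 168, 95.9 and 36.1 CPM. Piezo2, the mechanically gated channel of touch neurons, was at 1207, 726 and 661 CPM. Ntrk2 had 138, 143 and 197 CPM. Calca ran the other way, with 368, 1557 and 2262 CPM. Median depth fell along the same order as Ret, from 8811 to 5116 to 3436 UMIs. At 1000 UMIs per neuron the share with Gfra1 was 13.3%, 13.4% and 2.39%, so the first 2 classes were no longer apart, and the share with Maf was 23.3%, 15.7% and 7.51%.

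**Figure D4:**
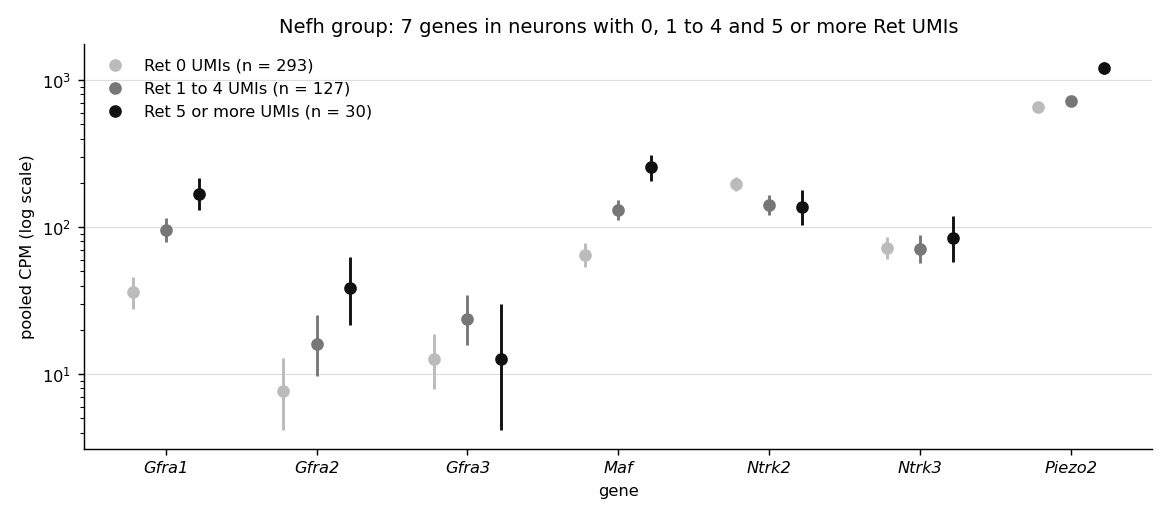
Pooled level (CPM, log axis) of 7 genes in neurons of the Nefh group with 0 (light), 1 to 4 (grey) and 5 or more Ret UMIs (black). Points are levels and lines exact Poisson 95% intervals. Gfra1 and Maf are higher in each class with more Ret (36.1, 95.9 and 168 CPM for Gfra1), whereas Ntrk3 is not.

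The ligands were hardly seen in these cells. In neurons Gdnf had 13 UMIs, Nrtn 21 and Artn 3, and Pspn was not among the genes of the count table. Among other receptors, Gfra4, the co-receptor of persephin, was at 15.5 to 69.2 CPM in all 7 groups, highest in the Calca group, and no group was 4-fold or more higher. Ncam1 and Sdc3, which can bind GDNF in the absence of RET, ran from 17.9 to 92.2 CPM and from 9.90 to 55.7 CPM. Gfral and Gas1 had 2 and 4 UMIs in neurons.

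Of 21 listed adaptors and effectors of RET, 16 had enough UMIs, and 1 of the 16 was 4-fold or more higher in some group, beside 6.88% of all genes. This was Grb10, an adaptor that binds receptor kinases, at 49.3 CPM in the Calca group, 22.6 CPM in the Trpm8 group and 0.883 to 6.19 CPM in the others. Grb2, which links receptors to Ras, varied little, between 248 and 332 CPM. In the Trpm8 group 3 of the 16 were 4-fold or more lower, beside 5.21% of all genes, namely Gab1, Dok1 and Rap1gap. This was not particular to that group. In the Cd34 group 2 were that far lower (3.8% of all genes), in the Nefh group 2 (2.14%) and in the Mrgprd group 1 (6.74%). Gab1, a docking protein downstream of Grb2, was 0.943 CPM in the Trpm8 group (2 UMIs) and 88.0 CPM in the Nppb group. Dok1 was likewise at 0.943 CPM in the Trpm8 group and at 30.9 CPM in the Mrgpra3 group, and Shc1 ran from 14.1 CPM (Trpm8) to 133 CPM (Mrgpra3). Others were above the other grouped neurons in the Trpm8 group, such as the phosphatase gene Ptpn11 (153 CPM, 0.57 on the log2 scale) and Gab2 (51.4 CPM, 0.46). Of 7 feedback genes 5 were tested and none was 4-fold or more higher in a group, beside 6.88% of all genes, while 1 was 4-fold or more lower in the Trpm8 group, beside 5.21%. This was Spry4, an inhibitor of receptor kinase signalling, at 24.9 CPM in the Cd34 group and 0.943 CPM in the Trpm8 group.

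Of 10 listed transcription factors 7 were tested and 2 were 4-fold or more higher in some group, beside 6.88% of all genes. Etv1, an ETS factor, was 486 CPM in the Mrgpra3 group, where 0.603% of genes were 4-fold or more higher, and 247 CPM in the Nppb group, where 0.671% were, and at most 28.1 CPM elsewhere. Maf was 110 CPM in the Nefh group, where 1.35% of genes were 4-fold or more higher, and at most 10.3 CPM elsewhere. Runx1 was highest in the Mrgprd group (252 CPM) and lowest in the Nefh and Mrgpra3 groups (22.1 and 27.8 CPM). It was 152 CPM in the Trpm8 group.

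The neurotrophin receptors gave a different order from Ret. Of the 3 receptors described, 1 was 4-fold or more higher in some group, beside 6.88% of all genes. This was Ntrk2, at 171 CPM in the Nefh group, where 1.35% of genes were that far higher, and at 0.611 CPM in the Mrgprd group (2 UMIs). Ntrk3, the TrkC receptor, ran from 3.36 CPM in the Mrgprd group to 73.3 CPM in the Nefh group. Ngfr, the shared p75 receptor, was 355 CPM in the Nefh group and 10.4 CPM in the Mrgprd group.

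Of 6 genes of nonpeptidergic neurons, all 6 were 4-fold or more higher in the Mrgprd group, beside 1.48% of all genes, and all 6 were that far lower in the Trpm8 group, beside 5.21%. Scn11a, a sodium channel, was 1142 CPM in the Mrgprd group and 12.7 CPM in the Trpm8 group, and Acpp, the phosphatase known by its histological stain, was 749 and 38.2 CPM. Prkcq, 1 of the 6, also served to split the Mrgprd group. The paper lists Prkcq, Lpar3 and Acpp among its cluster markers from these same cells. The contrast of this list with all genes was therefore partly set in advance. In the Mrgpra3 group the list was divided. Acpp, Scn11a and Plxnc1 were above the other grouped neurons (814, 1012 and 529 CPM), although none was 4-fold higher. P2rx3, Prkcq and Lpar3 were below those neurons (12.4, 6.19 and 3.09 CPM). The last 2 were lower by 4-fold or more, beside 1.3% of all genes. Both rest on sums under 3 UMIs that were set to 3, with 1 UMI of Lpar3. The median log2 difference of the 6 was 0.0018 there, beside -0.023 over all genes tested. Of the genes of peptidergic neurons, Calca is a gate gene, so its excess in the Calca group was set by the gate. Of the other 4, the neuropeptide genes Tac1 (7212 CPM) and Adcyap1 (792 CPM) and the membrane protein gene Tmem100 (216 CPM) were 4-fold or more higher in that group, beside 1.56% of all genes, and Calcb (792 CPM) was not. Their median log2 difference was 3.18, beside 0.0066 over all genes tested. Tac1, Adcyap1 and Tmem100 are likewise among the paper's cluster markers, so this contrast too was partly set in advance.

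**Figure D5:**
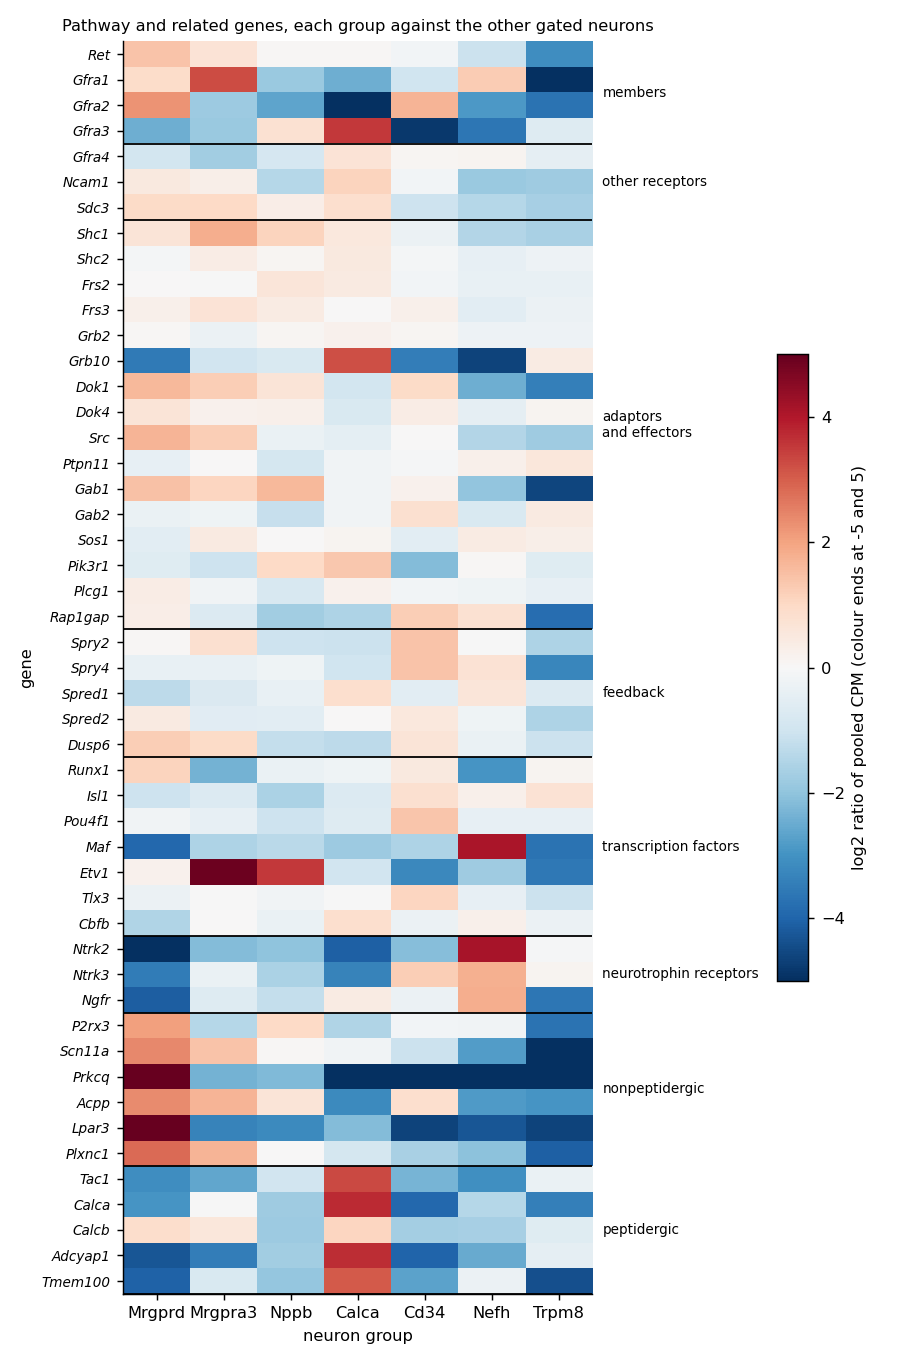
Difference of each gated group from all other gated neurons (log2 ratio of pooled CPM, colour from -5 to 5) for the 4 genes and for every gene described with 100 or more UMIs in grouped neurons, ordered by role. For listed genes, sums under 3 UMIs were set to 3. The rows of Gfra1, Gfra2 and Gfra3 are red in different columns, Ret is nearer to white in most, and the 6 nonpeptidergic genes are red in the Mrgprd column and blue in the Trpm8 column.

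Across 14 cell groups (12 finer splits and 2 unsplit groups), which all come from 1 pooled sample and some of which share a gate, the log2 levels of Ret correlated with those of Gfra2 at a Pearson r of 0.51, of Gfra1 at 0.44 and of Gfra3 at 0.066. Gfra3 was anticorrelated with Gfra1 (-0.56) and Gfra2 (-0.55), whereas Gfra1 and Gfra2 correlated at 0.40. The genes most like Ret of 10246 compared were Prkce, an epsilon protein kinase C (r = 0.908), Atrn (0.907) and Inpp4a, a phosphoinositide phosphatase (0.906). Prkce was 573 CPM in the Mrgprd group and 54.2 CPM in the Trpm8 group. Slc7a1, an amino acid transporter, was most like Gfra1 (0.948) and was 102 CPM in the Mrgpra3 group, followed by Ccdc172 (0.930) and Plagl1 (0.925). Gfra2 was nearest to Gadl1 (0.935), Trp53bp1 (0.934) and Ppef1 (0.934), the last with 244 CPM in the Mrgprd group and 183 CPM in the Cd34 group. Gfra3 was nearest to Sbno2 (0.924), Timeless (0.919) and Smad5 (0.918), and Timeless was 143 CPM in the Calca group and 137 CPM in the Nppb group. These correlations are a description over 14 points that share their libraries.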

How the data were processed

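The authors mapped Dropseq reads of 9 runs to mm10 (STAR 2.5.3a, per the processing notes) and deposited UMI counts per gene and barcode, keeping barcodes of 1000 or more UMIs. The values are raw counts. In all, 6 barcode pairs were taken to be shared by runs, which could not be checked. Runs are not named, so all cells were 1 pooled sample without replicates. The 4 genes, the gates, the subtype lists and the pathway lists were chosen with earlier results of these data known. Levels are pooled CPM with exact Poisson 95% intervals, ratios have exact conditional intervals and shares exact Clopper-Pearson intervals, for counting error only. Sums under 3 UMIs were set to 3 in the 4-fold counts. That count was tested on simulated data, where it missed most genes made lower in the Mrgpra3 and Nppb groups. Shares were repeated at 1000 random UMIs per neuron (seed 1). No doublet caller was run; neurons matching 1 gate alone and neurons without the deepest 5% are alternatives. The genes named are the 4 members, the pathway lists and the 3 genes of highest r of log2(CPM + 10) per member. Some genes of the lists, the effect of 1 further processing choice and some sequence are not reported here. No column was left unmapped, and no p-value was computed. Python 3.11.15, NumPy 2.4.6, SciPy 1.17.1 and Biopython 1.88 were used.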

Additional observations from a re-analysis of the deposited data

How the results depend on the processing

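The highest group of each gene was the same in the 6 alternatives reported. With every neuron weighted equally, the log2 difference of the highest group from the other grouped neurons was 1.33 for Ret, 2.69 for Gfra2 and 3.30 for Gfra3. With each neuron thinned to 1000 UMIs it was 1.30, 2.49 and 3.34. Among neurons that match 1 gate alone it was 1.33, 2.55 and 4.11. With doubled gates it was 2.52 for Gfra2 and 4.28 for Gfra3. Without the deepest 5% of neurons it was 1.30 for Ret and 3.34 for Gfra3. The Gfra1 difference stayed within its counting interval in these 6. The share of Ret neurons with a co-receptor, 70.2% over all neurons, was 30.7% when thinned and 72.7% with 5 or more neuron markers. Among neurons that match 1 gate alone the share was 73.7%. That value leaves out the neurons of no group, where the share was 53.0%, so it cannot be set beside the 70.2%. The cause of the other shifts was not tested. Low levels moved most: of the 18 group levels that rest on 50 or more UMIs, at most 2 moved by over 1.5 times in any of the 6. Of the 12 nearest genes named, Atrn, Slc7a1, Ppef1 and Timeless were among the 3 nearest of their gene also with a pseudocount of 1 CPM and with a minimum of 500 UMIs per gene. Prkce, Inpp4a, Trp53bp1, Ccdc172, Gadl1 and Smad5 were not with the pseudocount of 1 CPM. Ccdc172, Gadl1, Smad5, Plagl1 and Sbno2 have fewer than 500 UMIs, so the higher minimum left them out and says nothing of their likeness. Leaving out a run was not possible because barcodes do not name their run. No paired analysis was possible because the result comes from no test. Groups of 49 and 57 neurons limit the precision of the Mrgpra3 and Nppb values.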
